A study of Homo sapiens with 6 samples.

Results

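Aldehyde dehydrogenases, the enzymes that oxidise aldehydes to acids with NAD or NADP, were followed in a sorafenib-resistant liver cancer cell line after treatment with fostamatinib. The genes were chosen by symbol from a list of 10 (ALDH1A1, ALDH1A2, ALDH1A3, ALDH2, ALDH3A2, ALDH1B1, ALDH1L1, ALDH4A1, ALDH6A1 and ALDH7A1), of which 8 had values among the 16305 genes measured. ALDH1A3 and ALDH1L1 were not analysed here. The list was drawn up with the difference between treated and control cells already known, so that difference is given below as a description of these genes and not tested on them. The cells were Huh7SR, a line derived from the human hepatocellular carcinoma line Huh7 by long-term exposure to sorafenib, a multi-kinase inhibitor. They are a resistant pool and not a clone, and the methods state that sorafenib was taken out of the medium several days before experiments. RNA was sequenced from 3 samples treated with fostamatinib at 2 µM for 24 h. Fostamatinib is known as an inhibitor of spleen tyrosine kinase, but the study did not detect that protein in Huh7 cells. Another 3 samples were treated for the same time with DMSO, the vehicle, for which the labels give the same 2 µM. All the samples are of the resistant line, so neither untreated cells nor parental Huh7 cells enter any comparison.

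The aldehydes handled by this family arise from alcohol, vitamin A, membrane lipids, amino acids and folate, and each enzyme has its own substrates and its own place in the cell. ALDH1A1, ALDH1A2 and ALDH1A3 make retinoic acid from retinaldehyde in the cytosol, and high ALDH1A1 activity is widely used to mark stem-like tumour cells. ALDH2 and ALDH1B1 are closely related mitochondrial enzymes that oxidise acetaldehyde, and ALDH4A1, ALDH6A1 and ALDH7A1 act in the breakdown of proline, valine and lysine. Normal liver is rich in many of these enzymes, which are part of the metabolic repertoire of the hepatocyte.

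Each sample had 13303451 to 15272737 reads on genes that passed the filter of the authors. Between samples of the same treatment the variance was 1.65 to 3.74 times that of counting alone, and between treatments 39.8 to 44.5 times. Drug was applied in triplicate, and the labels do not say more of how separate the cultures were. The p-values therefore set the difference between treatments against the spread within groups of these samples. Whether that covers the spread between separate cultures is not known. All 11 hepatocyte markers listed (among them ALB, AFP, APOB and HNF4A) had values. All 11 were higher after fostamatinib at a limma adjusted p-value under 0.05, where 23.3% of all genes were. Their log2 fold changes ran from 0.21 for APOB to 3.19 for APOA1, a gene with 20 to 23 reads in DMSO. Their summed level was 5107 to 5444 CPM (reads scaled to the size of the library) in DMSO and 6932 to 7337 CPM in fostamatinib. Of the markers of other cell types, 1 of 5 leukocyte genes (LYZ), 1 of 4 endothelial genes (PECAM1), 5 of 5 stromal and 4 of 4 biliary genes had values; their summed levels ran from 9.30 to 10.8 CPM, 6.10 to 6.93 CPM, 297 to 305 CPM and 282 to 296 CPM in DMSO, and from 9.30 to 11.2 CPM, 8.72 to 9.89 CPM, 308 to 311 CPM and 329 to 337 CPM after fostamatinib. The stromal and biliary sums hide genes that went opposite ways: LUM fell by 0.40 (limma adjusted p = 2.08e-09) and SOX9 by 0.47 (1.59e-05), while COL1A2 rose by 0.37 (3.15e-09), PDGFRB by 0.95 (1.41e-04) and KRT19 by 0.25 (1.80e-06). The part of these markers in the differences described below was not tested. In RNA from whole cultures, fewer cells of a kind and less RNA per cell cannot be told apart.

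Between fostamatinib and DMSO, 6 of the 8 chosen genes with values were higher and 2 were lower, and in each of the 8 the 3 fostamatinib samples lay on one side of the 3 DMSO samples; groups did not overlap in 54.1% of all 16305 genes, 26.8% higher and 27.4% lower. In the limma fit over all genes 7 of the 8 passed an adjusted p-value of 0.05, 6 higher and 1 lower, where 47.8% of all genes passed, 23.3% higher and 24.5% lower. By more than 2-fold 2 passed, both higher (ALDH1A1 and ALDH6A1), against 7.13% of all genes, 3.85% higher and 3.29% lower. ALDH1A2, 1 of the 2 that were lower, met the read filter of the authors only through DMSO, where it is higher. Because the genes were picked with this contrast known, nothing is read from these counts. The median log2 fold change of the 8 was 0.41, and that of all genes 0.0015. The plot of levels by sample shows the whole set, from ALDH1A1 at the top of the range to ALDH1A2 at the limit of detection.

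**Figure D1:**
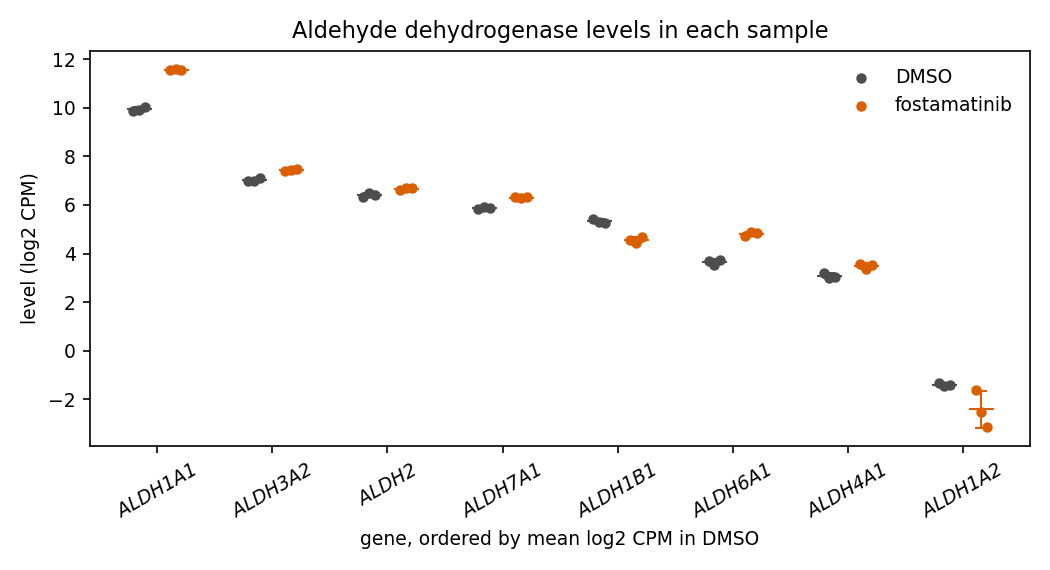
Level of the 8 chosen aldehyde dehydrogenase genes with values, as log2 CPM on the vertical axis, in the 3 DMSO samples (grey) and the 3 fostamatinib samples (orange). Points are single samples, horizontal marks the group means and bars the SD, and ALDH1A1 goes from a mean of 9.94 to 11.57 log2 CPM while ALDH1B1 and ALDH1A2 are lower after fostamatinib.

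ALDH1A1 (ENSG00000165092, chromosome 9 of GRCh37, 75515587 to 75695358, minus strand) encodes the cytosolic retinaldehyde dehydrogenase. It was the most abundant transcript of the family per length in every sample, and it had the largest difference among the 8 genes. Reads numbered 12986, 14729 and 15482 with DMSO and 41177, 44615 and 40080 with fostamatinib. The lowest treated sample therefore stood far above the highest control, and the gap between the groups was 1.52 on the log2 scale. The controls averaged 9.94 ± 0.076 log2 CPM (SD, n = 3) and the treated samples 11.57 ± 0.034, which is 3.10-fold or 1.63 on the log2 scale (standard error, SE, 0.034). By number of reads it ranked 68 to 81 among all genes in the DMSO samples and 14 to 16 after fostamatinib. Its signed log2 difference was higher than that of 98.5% of all genes, a rank in which every fall counts as lower, whatever its size.

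ALDH1A2 (ENSG00000128918, chromosome 15 of GRCh37, 58245622 to 58790065, minus strand), the retinaldehyde dehydrogenase of the embryo, was near the limit of detection. It had 5 reads in each DMSO sample and 4, 2 and 1 with fostamatinib. The groups do not overlap, but they lie a few reads apart. ALDH1A2 met the read filter of the authors (5 reads in at least 2 samples of a group) only in DMSO. That is the group where it is higher, so its presence here and its direction are not independent. The log2 difference was -1.01 (SE 0.64), and with so few reads its size depends on the 0.5 added to each count; it ran from -1.42 to -0.65 over the settings tried. In the count given above for the fit over all genes, from which nothing is read, ALDH1A2 is the 1 of the 8 that did not pass.

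ALDH1B1 (ENSG00000137124, chromosome 9 of GRCh37, 38392699 to 38398658, plus strand), the mitochondrial relative of ALDH2, went the other way. It had 588, 603 and 573 reads in DMSO and 321, 307 and 340 after fostamatinib. All 3 treated samples were below all 3 controls, with 0.59 on the log2 scale between the nearest samples. The level was 5.33 ± 0.076 log2 CPM (SD, n = 3) in DMSO and 4.55 ± 0.13 (SD, n = 3) in fostamatinib, 1.71-fold lower, with a log2 difference of -0.78 (SE 0.073).

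ALDH2 (ENSG00000111275, chromosome 12 of GRCh37, 112204691 to 112255336, plus strand) is the main mitochondrial enzyme for acetaldehyde made from ethanol. It had 1122, 1376 and 1275 reads in DMSO and 1342, 1472 and 1368 in fostamatinib, and in log2 CPM 6.35, 6.49 and 6.42 against 6.61, 6.69 and 6.69. The read numbers of the groups overlap, while the levels scaled to library size do not, with 0.11 on the log2 scale between the nearest samples. The log2 fold change was 0.24 (SE 0.050), or 1.18-fold. Of the ALDH2 exon bases 6.99% are shared with another annotated gene on the same strand (ENSG00000257767). Set against ALDH1B1 within each sample, ALDH2 per kb of exon was 0.612, 0.732 and 0.713 times as abundant in the DMSO samples and 1.34, 1.54 and 1.29 times after fostamatinib. Per kb of exon the order of these related enzymes was thus reversed, with ALDH1B1 above ALDH2 in all 3 controls and below it in all 3 treated samples. The reversal rests on the gene lengths used, since in plain reads ALDH2 was above ALDH1B1 in every sample. With the longest transcript as length, mean ALDH2 and ALDH1B1 levels were 8.97 and 13.3 RPKM in DMSO and 10.6 and 7.76 RPKM after fostamatinib.

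ALDH3A2 (ENSG00000072210, chromosome 17 of GRCh37, 19551449 to 19589073, plus strand) encodes the fatty aldehyde dehydrogenase of the endoplasmic reticulum, whose loss causes Sjögren-Larsson syndrome. Its levels were 6.98, 6.98 and 7.10 log2 CPM in DMSO and 7.41, 7.44 and 7.48 in fostamatinib, with no overlap. The log2 fold change was 0.43 (SE 0.044), or 1.34-fold.

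ALDH6A1 (ENSG00000119711, chromosome 14 of GRCh37, 74523550 to 74551195, minus strand) encodes the mitochondrial methylmalonate semialdehyde dehydrogenase of valine and thymine breakdown, which gives a coenzyme A ester in place of a free acid. The controls had 179, 177 and 198 reads and the treated samples 365, 421 and 376. Every treated sample lay above every control, and the spread within each group was small beside the distance between them. The level was 3.66 ± 0.11 log2 CPM (SD, n = 3) in DMSO and 4.82 ± 0.078 (SD, n = 3) in fostamatinib, 2.23-fold or 1.15 on the log2 scale (SE 0.085). Of its exon bases 10.03% are shared with BBOF1 on the opposite strand. The library kit keeps strand, but the strand setting of the counting is not given in the sources used here.

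The 250 bases before the RefSeq start of these 3 genes are shown because they are the clearest cases of the set, a pair that was higher and 1 that was lower. The sequences are from RefSeq on GRCh38.p14, a later build than that of the gene positions above, and run 5′ to 3′ on the gene's strand, from chr9:72953054-72953303 on the minus strand for ALDH1A1, chr14:74084454-74084703 on the minus strand for ALDH6A1 and chr9:38392452-38392701 on the plus strand for ALDH1B1. Capitals mark CCAAT or its reverse ATTGG, the letters of the CCAAT box, and no other motif searched is found in them.
ALDH1A1: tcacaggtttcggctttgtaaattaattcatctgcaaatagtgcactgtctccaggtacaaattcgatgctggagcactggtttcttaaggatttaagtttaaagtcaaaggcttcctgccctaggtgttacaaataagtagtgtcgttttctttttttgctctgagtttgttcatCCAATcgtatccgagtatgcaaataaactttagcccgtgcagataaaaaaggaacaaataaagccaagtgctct
ALDH6A1: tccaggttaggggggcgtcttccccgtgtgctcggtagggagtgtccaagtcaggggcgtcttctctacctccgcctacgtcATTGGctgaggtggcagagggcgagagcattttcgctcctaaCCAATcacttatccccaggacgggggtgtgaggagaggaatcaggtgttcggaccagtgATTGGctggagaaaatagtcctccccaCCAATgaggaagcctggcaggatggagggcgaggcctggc
ALDH1B1: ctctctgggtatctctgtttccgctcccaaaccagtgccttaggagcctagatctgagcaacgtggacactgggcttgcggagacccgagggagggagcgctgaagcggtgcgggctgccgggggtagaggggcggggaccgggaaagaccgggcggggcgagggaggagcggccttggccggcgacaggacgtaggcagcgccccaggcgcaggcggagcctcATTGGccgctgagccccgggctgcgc
ALDH6A1 holds the letters 4 times, a number reached or passed before 0.874% of the 35116 start sites in the table, and ALDH1A1 and ALDH1B1 hold them once each. The sequence before ALDH1A1 is 38.4% G and C, against 59.6% before ALDH6A1, 70.4% before ALDH1B1 and a median of 58% over all start sites; 10.8% of all were as low as ALDH1A1 or lower.

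Promoters were found in the table for 7 of the 8 genes with values, with 10 start sites. ALDH2 had none there. CCAAT on either strand stood before at least 1 start of 6 of the 7 (ALDH1A1, ALDH1A2, ALDH1B1, ALDH3A2, ALDH6A1 and ALDH7A1). A count of genes cannot be set against a share of start sites. By start, CCAAT stood before 7 of the 13 found for the list of 10, with ALDH1A3 and ALDH1L1 included. It stood before 32.0% of all start sites. GCGTG, the core that the aryl hydrocarbon receptor binds, stood before a start of 2 of the 7 (ALDH1A2 and ALDH3A2). By start, GCGTG stood before 3 of the same 13, and before 32.2% of all. The core of the antioxidant response element (TGACNNNGC) is found before 10.9% of all start sites, TATAAA before 10.7%, a repeat of AGGTCA spaced by 5 bases (the DR5 element of retinoic acid receptors) before 0.00285%, and the palindromic HNF1 motif before 0.0057%; none of these was found before a start of the 7 genes. All motifs were searched on both strands. A match is a match of letters, and a missing one says only that these letters are not in this window.

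ALDH7A1 (ENSG00000164904, chromosome 5 of GRCh37, 125866892 to 125931054, minus strand), also called antiquitin, oxidises aminoadipic semialdehyde in lysine breakdown and betaine aldehyde. It had 5.81, 5.93 and 5.89 log2 CPM in DMSO and 6.31, 6.27 and 6.32 in fostamatinib. The treated samples lay close together above the controls, and the log2 fold change was 0.42 (SE 0.052). The annotation holds pseudogenes of ALDH7A1 (ALDH7A1P1 to ALDH7A1P4 by name), so reads of near-identical sequence could have been lost or split in counting.

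ALDH4A1 (ENSG00000159423, chromosome 1 of GRCh37, 19197924 to 19229218, minus strand) catalyses the last step from proline to glutamate in mitochondria. Its counts were modest, with 127, 122 and 122 reads in DMSO and 165, 146 and 152 in fostamatinib. The highest control and the lowest treated sample were 0.15 apart on the log2 scale, and the log2 fold change was 0.41 (SE 0.11), or 1.32-fold. Of its exon bases 41.8% are shared with another annotated gene on the same strand (RP13-279N23.2), so its value is uncertain where reads fell on both.

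Levels of different genes can be compared only per length, and for this purpose reads were divided by the kilobases of annotated exon and by the scaled library size (RPKM). In the DMSO samples ALDH1A1 had 346 ± 18.3 RPKM (SD, n = 3), ALDH1B1 12.9 ± 0.691, ALDH2 8.82 ± 0.450, ALDH3A2 8.46 ± 0.402, ALDH7A1 3.28 ± 0.129, ALDH4A1 2.33 ± 0.180, ALDH6A1 1.89 ± 0.137 and ALDH1A2 0.042 ± 0.0023. ALDH2 and ALDH3A2 overlapped between samples and could not be ordered. Each of the other neighbours in that order was separated in all 3 samples. After fostamatinib ALDH1A1 had 1074 ± 25.2 RPKM (SD, n = 3), followed by ALDH3A2 with 11.4 ± 0.272, ALDH2 with 10.4 ± 0.338, ALDH1B1 with 7.54 ± 0.662, ALDH7A1 with 4.40 ± 0.0729, ALDH6A1 with 4.21 ± 0.227, ALDH4A1 with 3.09 ± 0.248 and ALDH1A2 with 0.021 ± 0.014. ALDH7A1 and ALDH6A1 overlapped there, and ALDH6A1 had passed ALDH4A1 in every treated sample. This order depends on the gene length used: with the longest transcript in place of all annotated exons, ALDH3A2 had 25.5 RPKM and ALDH7A1 12.3 RPKM in DMSO, and 4 of the 8 genes kept their place, ALDH1A1 among them.

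ALDH1A1 made up most of the transcript of the family. Over the 15 aldehyde dehydrogenase genes with values, the 8 chosen and 7 others, the summed level was 456, 466 and 489 RPKM in the DMSO samples and 1203, 1252 and 1219 RPKM in the fostamatinib samples. ALDH1A1 made up 72.7%, 72.8% and 75.0% of it in DMSO and 87.6%, 88.1% and 87.4% in fostamatinib. With the longest transcript as length these shares were 73.2% to 75.1% and 87.4% to 88.0%. The chosen genes other than ALDH1A1 summed to 37.5 to 38.0 RPKM in DMSO and 40.3 to 42.3 RPKM in fostamatinib, so that most of the added transcript was of 1 gene. In plain reads the family took 0.169% to 0.178% of each DMSO library and 0.391% to 0.407% of each fostamatinib library.

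**Figure D2:**
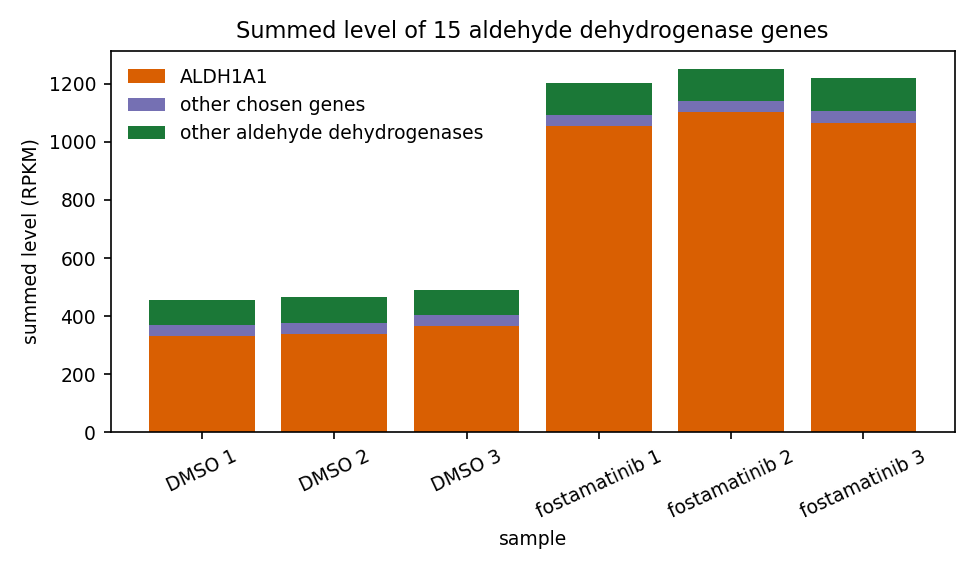
Summed level of the 15 aldehyde dehydrogenase genes with values, in RPKM from 0 on the vertical axis, for each of the 6 samples. Stacked bars split the sum into ALDH1A1 (orange), the other chosen genes (purple) and the other aldehyde dehydrogenases (green), and the orange part grows from between 332 and 367 RPKM to between 1054 and 1102 RPKM.

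The other aldehyde dehydrogenases are outside the list of 10 and were tested in the fit over all genes, although their list too was set with earlier results of these data known. Of 9 listed, 7 had values; 4 rose, 1 fell and 2 did not pass, where 23.3% of all genes rose and 24.5% fell. The median log2 fold change was 0.21, and it was 0.14 without DMSO replicate 1 and 0.12 without DMSO replicate 3. ALDH3A1 and ALDH3B2 were not analysed here. ALDH1L2, the mitochondrial enzyme that releases carbon dioxide from 10-formyltetrahydrofolate, had 489, 498 and 492 reads in DMSO and 90, 95 and 112 in fostamatinib. It fell by 2.23 in log2 units (SE 0.098, adjusted p = 6.4e-20, limma with Benjamini-Hochberg adjustment), the largest difference in the family. ALDH3B1, an enzyme of lipid-derived aldehydes, had 1647, 1922 and 1675 reads in DMSO and 3450, 3424 and 3386 in fostamatinib. It rose by 1.06 (SE 0.044, limma adjusted p = 1.44e-20). ALDH5A1, the succinic semialdehyde dehydrogenase of GABA breakdown, rose by 0.57 (SE 0.080, limma adjusted p = 2.94e-07), with 226, 260 and 281 reads against 354, 367 and 343.

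ALDH18A1, which makes the precursor of proline and is in this family by sequence, rose by a small amount, 0.14 on the log2 scale (SE 0.041, limma adjusted p = 4.91e-03). ALDH16A1 rose by 0.21 (SE 0.080, limma adjusted p = 0.0287), although its groups overlapped. Of its exon bases 10.7% are shared with other annotated genes, ENSG00000269469 on the same strand and PIH1D1 on the opposite strand. Without DMSO replicate 3 the ALDH16A1 log2 fold change was 0.10 and the adjusted p-value 0.273, and without fostamatinib replicate 2 or 3 the adjusted p-values were 0.10 and 0.143. For neither gene was the change past the threshold without limma's mean-variance trend (for the ALDH18A1 log2 fold change adjusted p = 0.0515, for that of ALDH16A1 0.202). ALDH9A1, which oxidises aminobutyraldehyde and a carnitine precursor, had a log2 fold change of -0.013 (SE 0.061, limma adjusted p = 0.885), and ALDH8A1, with 2 to 10 reads per sample, one of 0.52 (SE 0.52, limma adjusted p = 0.442).

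**Figure D3:**
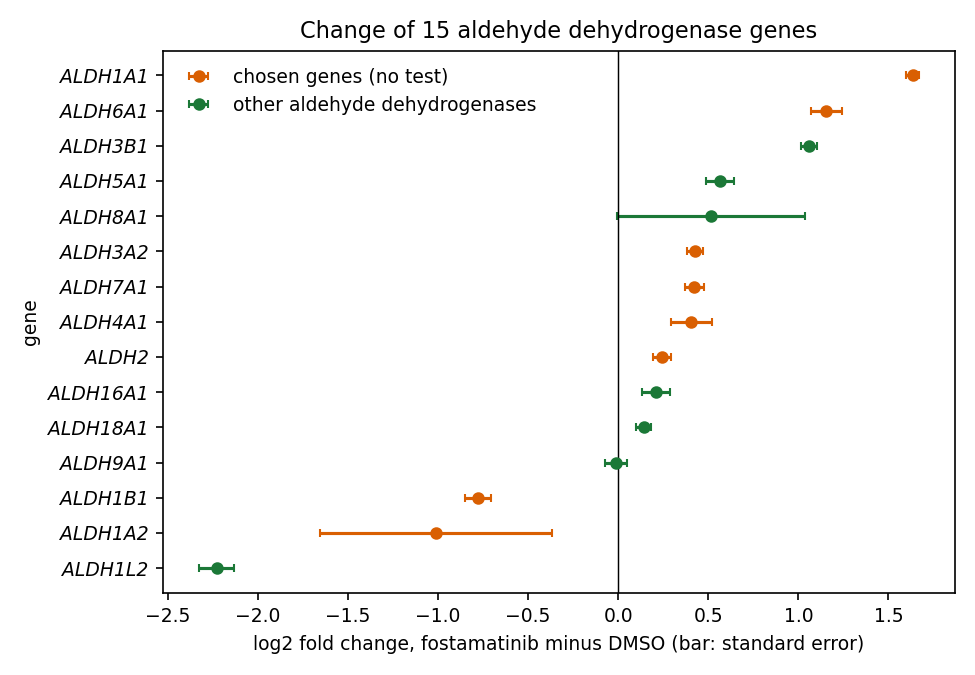
Log2 fold change, fostamatinib minus DMSO, on the horizontal axis for the 15 aldehyde dehydrogenase genes with values, with bars for the standard error. The 8 chosen genes (orange) are a description without a test, the 7 others (green) were tested, and the values run from -2.23 for ALDH1L2 to 1.63 for ALDH1A1.

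The pathways around these enzymes were described with gene lists taken from textbook knowledge. These lists too were set with earlier results of these data known. Their counts are to be read against 23.3% of all genes higher and 24.5% lower. In retinoid metabolism and signalling, the pathway of ALDH1A1 and ALDH1A2, 21 of 28 genes had values; 9 rose, 7 fell and 5 did not pass, with a median log2 fold change of 0.20. Of the 7 that fell, DHRS9 and CRABP2 met the read filter of the authors only in DMSO, where they are higher. With that filter required of both groups, 14 genes of the list changed, against 16, and the median was 0.26. Genes of retinol transport and nuclear receptors were among those that rose. RBP4, the plasma carrier of retinol, rose by 0.52 (SE 0.039, limma adjusted p = 1.08e-13), and RXRA, the partner of the retinoic acid receptors, by 0.56 (SE 0.057, limma adjusted p = 1.98e-10). RARB, a retinoic acid receptor gene that is itself a classical target of retinoic acid, had 9, 12 and 8 reads in DMSO and 47, 44 and 30 in fostamatinib, a log2 fold change of 2.09 (SE 0.29, limma adjusted p = 1.73e-07). FABP5, a fatty acid binding protein that also carries retinoic acid, fell by 0.76 (SE 0.062, limma adjusted p = 1.33e-12). RDH13, a mitochondrial retinol dehydrogenase, fell by 0.61 (SE 0.081, limma adjusted p = 7.15e-08).

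DHRS3, which reduces retinaldehyde back to retinol, rose by 0.45 (SE 0.063, limma adjusted p = 1.95e-07), and RDH10, which makes retinaldehyde, by 0.47 (SE 0.095, limma adjusted p = 8.49e-05). CYP26B1, which degrades retinoic acid, had 1202, 1234 and 1099 reads in DMSO and 1060, 972 and 945 in fostamatinib. Scaled to library size, its groups overlapped. The CYP26B1 log2 fold change of -0.16 (SE 0.057, limma adjusted p = 0.0215) was no longer past the threshold without DMSO replicate 1 (adjusted p = 0.207), without fostamatinib replicate 2 (0.153) or 3 (0.0727), or without the mean-variance trend (0.191). RARA had a log2 fold change of -0.063 (SE 0.083, limma adjusted p = 0.562). The points of this list farthest to the left in the plot of pathway genes, DHRS9 and CRABP2, rest on at most 9 reads in any sample. Having met the read filter only through DMSO, they could hardly appear except as falls. DHRS3, CYP26B1, RARB, DHRS9 and CRABP2 were chosen after their values were seen.

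In alcohol oxidation and acetate activation, the pathway of ALDH2 and ALDH1B1, 5 of 12 genes had values, and the classical liver alcohol dehydrogenases ADH1A, ADH1B, ADH1C and ADH4 were not analysed here. Of the 5, 4 rose and ADH5 did not pass (log2 fold change 0.057, SE 0.042, limma adjusted p = 0.272). ADH6 had 10, 14 and 17 reads in DMSO and 54, 60 and 71 in fostamatinib, a rise of 2.24 (SE 0.24, limma adjusted p = 1.14e-09). Catalase (CAT), which can oxidise ethanol with hydrogen peroxide, rose by 0.70 (SE 0.047, limma adjusted p = 9.03e-15), and ACSS2, which turns acetate into acetyl-CoA, by 0.57 (SE 0.047, limma adjusted p = 1.59e-12). AKR1A1, an aldehyde reductase, rose by 0.39 (SE 0.045, limma adjusted p = 5.09e-09).

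In branched-chain amino acid degradation, where ALDH6A1 acts on valine, 16 of 17 genes had values; 7 rose, 4 fell and 5 did not pass. The largest change was at the first step. BCAT1, the cytosolic transaminase, had 2133, 2125 and 2560 reads in DMSO and 598, 598 and 541 in fostamatinib, and fell by 1.88 on the log2 scale (SE 0.058, limma adjusted p = 2.36e-24), while its mitochondrial counterpart BCAT2 had a log2 fold change of -0.063 (SE 0.085, limma adjusted p = 0.573). Genes of later steps, in mitochondria, differed in direction. Those that rose did so by less than 2-fold, among them ACADSB by 0.72 (SE 0.076, limma adjusted p = 7.69e-10), MUT (methylmalonyl-CoA mutase) by 0.66 (SE 0.071, limma adjusted p = 8.23e-10), MCEE by 0.64 (SE 0.13, limma adjusted p = 8.09e-05) and BCKDHB by 0.50 (SE 0.084, limma adjusted p = 6.24e-06). HIBADH, the enzyme just before ALDH6A1 in valine breakdown, had a log2 fold change of -0.18 (SE 0.050, limma adjusted p = 3.54e-03), opposite in sign to ALDH6A1. PCCB, of propionyl-CoA carboxylase, fell by 0.33 (SE 0.072, limma adjusted p = 2.12e-04) and DLD, a dehydrogenase shared by several complexes, by 0.13 (SE 0.046, limma adjusted p = 0.0149). HIBADH, PCCB and DLD were chosen after their values were seen.

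Around ALDH4A1, in proline, ornithine and glutamate metabolism, 7 of 10 genes had values; 2 rose, 4 fell and GLUD1 did not pass (-0.025, SE 0.041, limma adjusted p = 0.649). OAT, ornithine aminotransferase, which yields the substrate of ALDH4A1 from ornithine, had 1144, 1248 and 1262 reads in DMSO and 2547, 2758 and 2503 in fostamatinib, a rise of 1.18 (SE 0.044, limma adjusted p = 4.86e-22). GLUL, glutamine synthetase, rose by 0.90 (SE 0.042, limma adjusted p = 2.86e-19). PYCR1, an enzyme of the opposite direction, from glutamate to proline, fell by 0.45 (SE 0.055, limma adjusted p = 1.8e-08).

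Around ALDH7A1, in lysine and choline degradation, 9 of 10 genes had values; 4 rose, 5 did not pass and none fell, and at an unadjusted p-value under 0.05 the count of falls was 0 as well. CHDH, choline dehydrogenase, which makes the betaine aldehyde that ALDH7A1 can oxidise, had 111, 120 and 130 reads in DMSO and 366, 358 and 381 in fostamatinib, a rise of 1.70 (SE 0.094, limma adjusted p = 3.23e-17). AASS, the first enzyme of lysine breakdown, rose by 0.65 (SE 0.080, limma adjusted p = 2.02e-08), and DHTKD1, a later one, by 0.42 (SE 0.065, limma adjusted p = 1.47e-06). DMGDH, of choline breakdown, rose by 0.42 (SE 0.12, limma adjusted p = 3.81e-03). BHMT2 (-0.034, adjusted p = 0.566) and GCDH (0.082, adjusted p = 0.469) did not pass limma's test.

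The list of cytosolic folate enzymes, the setting of ALDH1L1, also holds folate carriers (SLC25A32, SLC19A1 and SLC46A1) and the lysosomal enzyme GGH. Of its 14 genes 13 had values. Of these 2 rose (GGH among them), 6 fell (SLC25A32 and SLC19A1 among them) and 5 did not pass, with a median log2 fold change of -0.48. That median is the value of FTCD, a gene with 0 to 7 reads per sample, and it was -0.22 without DMSO replicate 1, -0.27 without fostamatinib replicate 3 and -0.13 with 2 reads added in place of 0.5. MTHFD1, the trifunctional enzyme that makes 10-formyltetrahydrofolate, fell by 0.78 (SE 0.053, limma adjusted p = 1.06e-14). The folate carriers SLC25A32 and SLC19A1 fell by 0.85 (SE 0.084, limma adjusted p = 1.2e-10) and 0.79 (SE 0.086, limma adjusted p = 1.18e-09), and thymidylate synthase (TYMS) by 0.70 (SE 0.052, limma adjusted p = 1.21e-13).

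In fatty aldehyde and sphingolipid breakdown, the setting of ALDH3A2, 9 of 14 genes had values; 1 rose, 2 fell and 6 did not pass. SGPL1, the sphingosine phosphate lyase whose product hexadecenal is oxidised by ALDH3A2, fell by 0.36 (SE 0.066, limma adjusted p = 1.92e-05), and SPHK1, the kinase before it, by 0.52 (SE 0.16, limma adjusted p = 6.24e-03). PHYH, of phytanic acid oxidation, rose by 0.33 (SE 0.072, limma adjusted p = 2.1e-04). HACL1, the lyase that makes pristanal in the same route, had a log2 fold change of -0.021 (SE 0.071, limma adjusted p = 0.835).

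**Figure D4:**
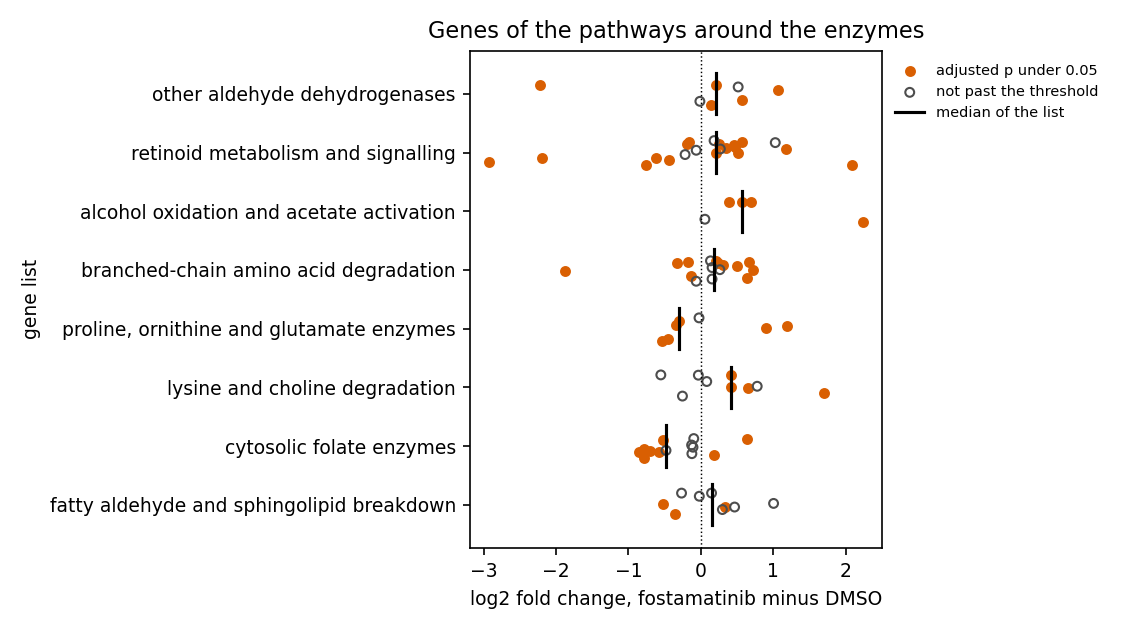
Log2 fold change, fostamatinib minus DMSO, of the genes with values in 8 lists around the enzymes. Each point is a gene, filled where limma's adjusted p-value was under 0.05, and the vertical bars are the list medians, which run from -0.48 for the cytosolic folate enzymes (the value of FTCD, a gene with at most 7 reads in any sample) to 0.57 for alcohol oxidation and acetate activation.

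The genes whose pattern over the 6 samples was most like that of ALDH1A1 were KLHL13, CREB3L3, AGR2, JADE1 and LANCL1. Likeness was the root mean square difference of the 6 log2 CPM values, each gene set to its own DMSO mean, and 11485 genes averaging 50 reads or more were compared. It was 0.024 for KLHL13, which had 121, 133 and 144 reads in DMSO and 383, 419 and 360 in fostamatinib, and 0.047 to 0.056 for the others. Those most like ALDH1B1 were DHX33, GPT2, ADGRA3, NCS1 and ADAM28, with differences of 0.039 to 0.057. With 2 treatments this measure finds mainly genes with a difference of the same size.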

How the data were processed

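Poly(A) RNA of 6 Huh7SR samples was sequenced from strand-specific libraries. Reads were mapped by the authors to hg19 with HISAT, counted per gene with featureCounts on a GENCODE annotation, filtered for low counts and scaled by TMM; tool versions are not given in the sources used here. The deposited values are log2 counts per library size with 0.5 reads added, and every value gave back a whole number of reads within 0.05, so reads were recovered from them. The linear models of limma 3.58.1 in R 4.3.3 were fitted to these log2 values for all 16305 genes, with eBayes and its trend option, and p-values were adjusted by Benjamini-Hochberg. The fit was tested on simulated counts with a fixed spread, in which far fewer genes changed than the 47.8% that passed here. That test does not show how the fit behaves with so many changes. Per-length levels used the union of annotated exons on GRCh37, from a later GENCODE release than that of the authors. Tables were handled with Python 3.11.15 and pandas 2.3.3.

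The chosen genes and the gene lists were set with earlier results of these data known, so the former carry no p-value. Named genes were all aldehyde dehydrogenases, up to 5 changed genes per list with the largest change (at least 50 reads in the higher group) and up to 3 that did not pass, and the 5 genes most like ALDH1A1 and ALDH1B1; some genes that the rule names are not reported here. Alternatives were limma-voom on the recovered reads, no trend, other scalings, 2 reads added, stricter filters, a replicate block, leaving out each sample and another gene length.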

Additional observations from a re-analysis of the deposited data

How the results depend on the processing

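The log2 differences of the 8 chosen genes kept their direction and moved by less than 1 SD between replicates in all 110 comparisons with an alternative. For most settings this was fixed in advance. Leaving out 1 of 3 samples cannot move a difference by 1 SD, or change its sign where groups do not overlap. Dropping the trend, a replicate block and stricter filters leave a difference of means as it was. Only voom, the other scalings and the added reads could have moved it further. ALDH1A2 has no value under either stricter read filter. Without the mean-variance trend 3 other aldehyde dehydrogenases changed, against 5, and with the longest transcript as length 4 of 8 chosen genes kept their rank by level. Leaving out 1 sample gave 4 to 5 other aldehyde dehydrogenases, 13 to 16 retinoid, 4 alcohol, 11 to 12 branched-chain, 5 to 6 proline, 4 lysine and choline, 7 to 8 folate and 3 to 4 fatty aldehyde genes, and 6958 to 7480 of all genes against 7794. Over all genes, fostamatinib against DMSO, a fit blocked on replicate number (replicate block) passed 7977 genes, 5 of the other aldehyde dehydrogenases among them. Deviations of same-numbered samples correlated at 0.034, -0.044 and 0.041 over 11485 genes. With 3 samples a group this cannot decide whether same-numbered samples were handled together, which the labels do not say. Of the genes in the lists, 1142 values kept their direction and call, 12 became significant and 30 lost significance. Another 12 values, of 8 genes that passed in neither setting, changed sign when 1 sample was left out: the ALDH8A1 log2 fold change ran from -0.026 to 0.88, the ALDH9A1 log2 fold change from -0.040 to 0.025, the CYP26C1 log2 fold change from -0.70 to 0.13, the BCAT2 log2 fold change from -0.19 to 0.019, the GLUD1 log2 fold change from -0.052 to 0.0048, the FTCD log2 fold change from -1.21 to 0.72, the FAR1 log2 fold change from -0.16 to 0.62 and the HACL1 log2 fold change from -0.069 to 0.052. The median of the fatty aldehyde list, 0.15, ran from -0.045 to 0.15 without 1 sample and was -0.14 with at least 10 reads in every sample. Genes with few reads, ALDH1A2 and ALDH8A1 above all, are limited by depth, and the cause of the other shifts was not tested.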
